A study of Bos taurus with 48 samples.

Results

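Expression of 3 genes of fatty acid desaturation was followed in subcutaneous adipose tissue of growing and later pregnant heifers. The genes were SCD (ENSBTAG00000045728), FADS2 (ENSBTAG00000015505) and CYB5A (ENSBTAG00000012012), chosen by name for their role in this step, and they are 3 of the 24616 genes counted in every sample. All 3 were detected in all 48 samples. The study had already named them among the genes that differed between the low-protein diets in yearling heifers, so that contrast is given here as a description of their values and is not independent evidence of a difference. The contrast of all high-energy with all low-energy heifers at that age includes the same samples and is not independent evidence either.

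SCD encodes stearoyl-CoA desaturase, the endoplasmic reticulum enzyme that places the first cis double bond into saturated fatty acyl chains and turns stearate into oleate. FADS2 encodes another desaturase, the first enzyme on the route from dietary linoleic and linolenic acid to long-chain polyunsaturated fatty acids. CYB5A encodes cytochrome b5, a small haem protein of the same membrane that passes electrons to SCD and to other oxidising enzymes. Adipose tissue is the main site of fatty acid synthesis in ruminants, and SCD acts there on newly made fatty acids.

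Samples came from 24 Norwegian Red heifers, each biopsied under the skin beside the tail base at an age of 12 months and, a second time, in gestation month 7. From 3 months of age until pregnancy was established, they received low-protein high-energy (LPHE), low-protein low-energy (LPLE), high-protein high-energy (HPHE) or high-protein low-energy (HPLE) feed, with 6 heifers per diet. Energy was varied through the roughage, which was unlimited silage for high-energy (HE) heifers and a rationed mix of silage and straw for low-energy (LE) heifers. Within an energy level, protein was varied through the concentrate. The HE roughage also held more protein than the LE roughage. Crude protein intake was higher in both HE groups than in both LE groups, so the energy contrasts also carry protein intake. Each diet held 3 heifers of the high milk-yield (HMY) and 3 of the low clinical mastitis (LCM) genetic group. Throughout gestation all heifers shared the same low-energy feed, so the diet labels of the gestation samples refer to feeding that had ended. Heifers were bred at a common body weight, which LE heifers reached at a higher age. In the gestation samples, earlier diet and age therefore cannot be told apart. HE heifers also entered puberty earlier and were heavier at 12 months. In the 12-month samples, energy level therefore cannot be told apart from body weight and reproductive timing.

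Values are read counts as CPM, that is scaled to library size, after TMM normalization, which adjusts for differences in library composition. Counts on genes ranged from 14815595 to 59809633 per sample at 12 months and from 22430093 to 61027456 in gestation. Reads set aside for aligning to more than 1 place made up 12.6 to 39.97% of all counts in a library's file, summary rows included. Samples of the same diet and time differed by far more than counting noise, with at least 40.2 times the chi-square that noise alone gives among 120 pairs. FADS2 had the lowest counts, from 60 to 1655 reads, and SCD took 0.0971 to 2% of all counts on genes. Of 7 fixed adipocyte markers only CIDEC, a lipid droplet protein, had an identifier in the sources used here, and its level was 810 to 2798 CPM at 12 months and 876 to 2096 CPM in gestation. The fixed markers of macrophages, T cells, endothelium and epithelium had no identifiers and could not be examined. In such bulk tissue, fewer cells of a type and less RNA per cell cannot be told apart.

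At 12 months, while the diets were fed, SCD and CYB5A were higher and FADS2 was lower in HE than in LE heifers. SCD ranged from 6236 to 21178 CPM in LPHE heifers (median 13954) and from 1978 to 12111 CPM in LPLE heifers (median 6632). In HPHE heifers SCD ranged from 7782 to 20918 CPM (median 17013), and in HPLE heifers from 4489 to 11934 CPM (median 7942). The groups overlapped at both protein levels, with heifer 12 lowest of LPHE, heifer 15 lowest of HPHE and heifer 18 lowest of LPLE. Mean SCD was 14834 ± 5681 CPM in LPHE and 6645 ± 3313 in LPLE, and 16373 ± 4611 in HPHE and 7958 ± 2717 in HPLE (SD, n = 6 each).

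The log2 fold change of SCD was 1.11 for LPHE-LPLE (SE 0.317, FDR = 0.0212, edgeR likelihood ratio test), where 7.08% of 13339 genes were called, that is had an FDR under 0.1. For HPHE-HPLE it was 1.06 (SE 0.316), nearly as large, but with an FDR of 0.230 it did not pass in a contrast where only 0.12% of genes did. Without heifer 15 of HPHE the value was 1.23 (FDR = 0.0437), and without heifer 7 of HPLE it was 1.18 (FDR = 0.0945). Over both protein levels (HE-LE) SCD was higher by 1.08 (SE 0.222, FDR = 2.45e-04), against 11.4% of genes called. HE-LE includes the low-protein heifers in which the study had named SCD, so it is not independent evidence. A limma model of all 48 samples, with a correlation within heifers, gave 1.28 for LPHE-LPLE with an adjusted p of 0.104, above the threshold of 0.1. For HE-LE it gave 1.16 with an adjusted p of 0.0257. This model also differs from the edgeR one in test and sample set.

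FADS2 ran in the opposite direction at 12 months. The library kit did not mark strand, and whether reads of its relative FADS1 affected its counts was not examined. It ranged from 4.12 to 33.7 CPM in LPHE heifers (median 13.8) and from 23.2 to 47.4 CPM in LPLE heifers (median 30.5). Only heifer 12 of LPHE lay within the LPLE range, and the other LPHE heifers were all below it. In HPHE heifers FADS2 ranged from 7.48 to 25.7 CPM (median 13.1) and in HPLE heifers from 14.1 to 32 CPM (median 22.8), with overlap. The log2 fold change was -1.14 for LPHE-LPLE (SE 0.282, FDR = 0.00602), -0.63 for HPHE-HPLE (SE 0.277, FDR = 0.585) and -0.89 for HE-LE (SE 0.199, FDR = 8.86e-04, all by edgeR). The limma model of all 48 samples gave -0.98 for LPHE-LPLE (adjusted p = 0.111), which did not pass, and -0.81 for HE-LE (adjusted p = 0.0423), which did.

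CYB5A, the electron donor, shared the direction of SCD with a smaller difference. It ranged from 648 to 1308 CPM in LPHE heifers (median 886) and from 249 to 891 CPM in LPLE heifers (median 518). In HPHE heifers it ranged from 502 to 1240 CPM (median 1051) and in HPLE heifers from 400 to 885 CPM (median 744). These groups overlapped at both protein levels. CYB5A had a log2 fold change of 0.75 for LPHE-LPLE (SE 0.264, FDR = 0.0794), 0.52 for HPHE-HPLE (SE 0.263, FDR = 0.689) and 0.63 for HE-LE (SE 0.187, FDR = 0.0177, edgeR). The LPHE-LPLE call of CYB5A was near the threshold: it was lost, with an FDR of 0.110 to 0.253, when any 1 of 7 heifers was left out, namely 16, 20 or 24 of LPHE or 4, 8, 14 or 18 of LPLE.

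**Figure D1:**
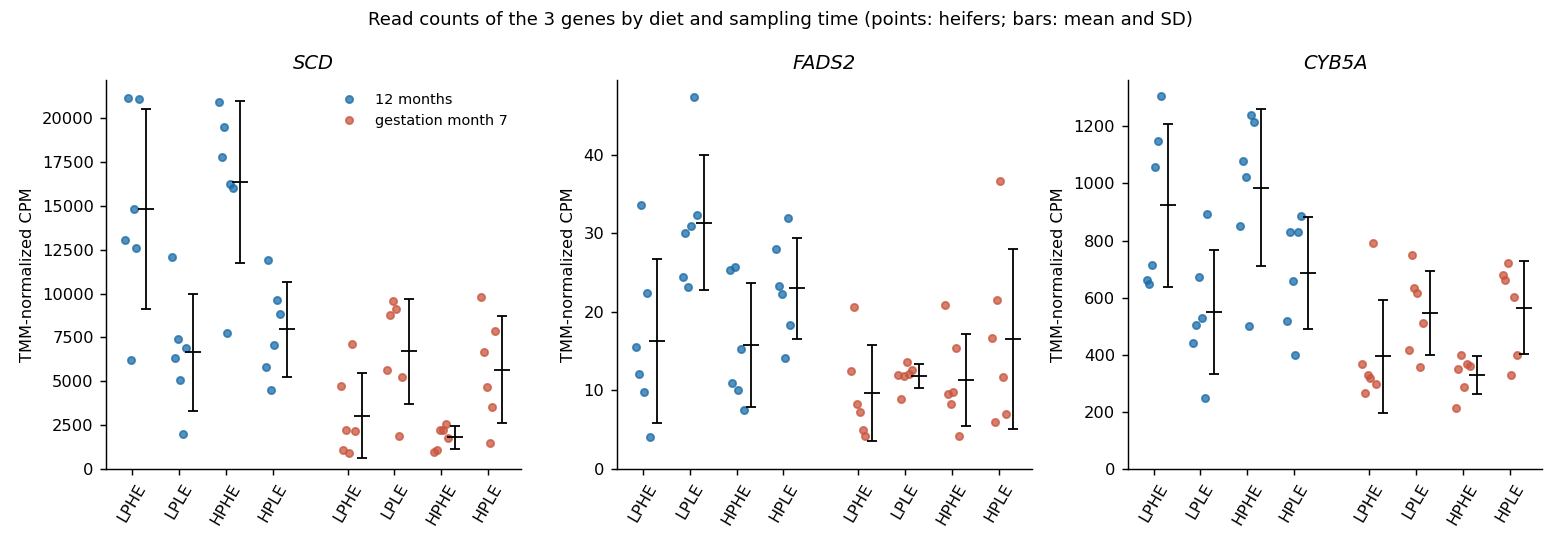
TMM-normalized CPM of SCD, FADS2 and CYB5A (vertical axes, each from 0) in the 6 heifers of each diet at 12 months (blue) and in month 7 of gestation (red), with the group mean and SD as black bars. SCD and CYB5A means were higher in both HE groups than in both LE groups at 12 months and lower in gestation, whereas the FADS2 means were lower in HE groups at both times.

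Protein level of the diet within an energy level made no detectable difference to the 3 genes. At 12 months the log2 fold changes of HPHE-LPHE were 0.18 for SCD (SE 0.315), -0.010 for FADS2 (SE 0.276) and 0.11 for CYB5A (SE 0.263), and those of HPLE-LPLE were 0.24 (SE 0.312), -0.52 (SE 0.276) and 0.34 (SE 0.263). All had an edgeR FDR above 0.99, and 0.0225% of genes were called in each of these contrasts. The energy contrast at low minus that at high protein was 0.053 for SCD (SE 0.445), -0.51 for FADS2 (SE 0.390) and 0.23 for CYB5A (SE 0.372), none of which passed where 0.105% of genes did. A call in LPHE-LPLE and none in HPHE-HPLE is thus not a measured difference between protein levels for these genes.

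Permutation tests of single heifers used the same samples, so their shared directions add no evidence, and they have less resolution. In 12 exact two-sided permutation tests of log2 CPM with 6 heifers against 6 (smallest possible p 0.00216), SCD gave p = 0.0195 at low and 0.00866 at high protein at 12 months, FADS2 gave 0.0238 and 0.0909, and CYB5A gave 0.0303 and 0.0952. After Benjamini-Hochberg adjustment over the 12 tests, the lowest value was 0.0571, so no single exact permutation test was under 0.05.

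FADS2 also differed in level between the genetic groups at 12 months, without passing the threshold. It ranged from 15.2 to 47.4 CPM in the 12 HMY heifers (median 24.9) and from 4.12 to 32.3 CPM in the 12 LCM heifers (median 13.1). The log2 fold change of HMY-LCM was 0.81 (SE 0.199) with an edgeR FDR of 0.112, in a contrast where 0.03% of genes were called. Values of SCD and CYB5A were -0.16 (SE 0.223) and -0.17 (SE 0.186). Within LCM heifers, the difference in mean log2 CPM of FADS2 between LPHE and LPLE was -1.90, and within HMY heifers it was -0.39, with 3 heifers against 3 in each case and groups that did not overlap among LCM heifers. Whether the energy contrast of FADS2 differed between genetic groups was not tested. In gestation the log2 fold change of HMY-LCM for FADS2 was 0.16 (SE 0.273, FDR = 0.986), where 0.179% of genes were called.

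The relation between both desaturases within each library was expressed as the log2 ratio of SCD to FADS2 counts, which does not depend on the scaling of the library. At 12 months the ratio was 10.003 ± 1.62 in LPHE and 7.58 ± 1.21 in LPLE heifers, and 10.1 ± 0.625 in HPHE and 8.41 ± 0.638 in HPLE heifers (SD, n = 6 each). At high protein, the HPHE range of 9.56 to 11.1 lay wholly above the HPLE range of 7.65 to 9.0003, and the difference of 1.69 had p = 0.00216, the smallest that an exact permutation test of this design gives (adjusted over 4 tests, 0.00866). At low protein the ranges overlapped, and the difference of 2.42 had p = 0.0195 (exact permutation, adjusted 0.039). The study had named both genes there with opposite directions, so this low-protein difference is not independent evidence. In gestation the difference was -0.83 at low protein (p = 0.312) and -1.06 at high protein (p = 0.247, both by exact permutation), and the ranges overlapped.

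**Figure D2:**
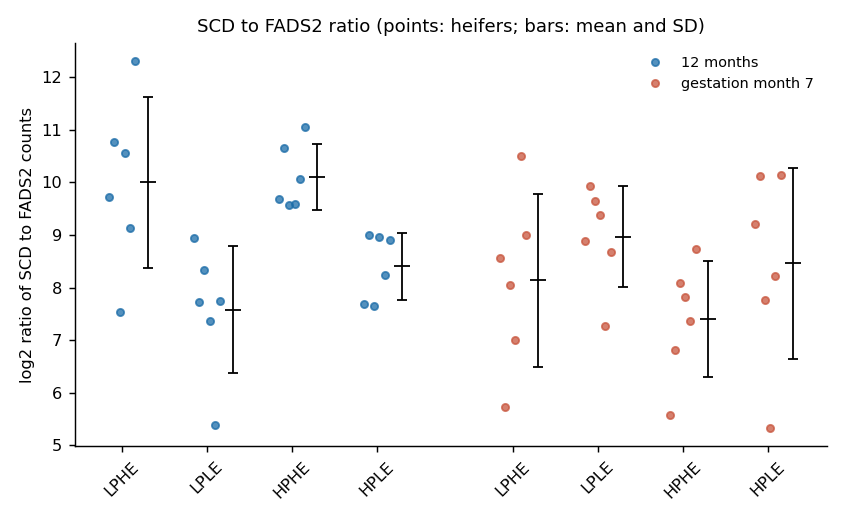
Log2 ratio of SCD to FADS2 counts (vertical axis, no unit) per heifer by diet and sampling time, with group mean and SD as black bars. At 12 months the 6 HPHE heifers lay between 9.56 and 11.1 and the 6 HPLE heifers between 7.65 and 9.0003, while all pairs of energy groups overlapped in gestation.

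In gestation, after months on a shared feed, SCD and CYB5A stood the other way round: both were lower in heifers reared on HE than in those reared on LE. SCD ranged from 933 to 7152 CPM in LPHE heifers (median 2189) and from 1884 to 9604 CPM in LPLE heifers (median 7227). In HPHE heifers it ranged from 993 to 2545 CPM (median 2001) and in HPLE heifers from 1475 to 9833 CPM (median 5664). At low protein heifers 3, 12, 20 and 24 of LPHE were above heifer 18 of LPLE, and heifer 20 was also above heifers 4 and 22 of LPLE. At high protein heifer 13 of HPLE lay within the HPHE range, while the other HPLE heifers were above it. Mean SCD was 3046 ± 2423 CPM in LPHE, 6710 ± 3002 in LPLE, 1808 ± 647 in HPHE and 5671 ± 3046 in HPLE heifers (SD, n = 6 each).

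The log2 fold change of SCD in gestation was -1.29 for LPHE-LPLE (SE 0.443, FDR = 0.192, 1.05% of 13403 genes called) and -1.66 for HPHE-HPLE (SE 0.434, FDR = 0.0284, 0.948% called). For HE-LE over both protein levels it was -1.47 (SE 0.310, FDR = 3.67e-04, edgeR), against 6.33% of genes called. The HPHE-HPLE call was lost, with an FDR of 0.111 to 0.1497, without heifer 2 of HPHE or heifer 1, 7 or 21 of HPLE. For the same contrast the limma model of all 48 samples gave -1.54 (adjusted p = 0.393). The LPHE-LPLE contrast passed without heifer 20 of LPHE (-1.65, FDR = 0.0277) or heifer 18 of LPLE (-1.55, FDR = 0.0244). HE-LE held without any 1 heifer and in the limma model (-1.44, adjusted p = 0.0124). Within genetic groups, with 3 heifers against 3, the difference in mean log2 CPM of SCD for LPHE-LPLE was -0.16 in HMY and -2.51 in LCM heifers, and for HPHE-HPLE it was -1.61 and -1.40.

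CYB5A in gestation ranged from 266 to 791 CPM in LPHE heifers (median 323), where heifer 20 was the highest by far and the other heifers were at or below 368. It ranged from 356 to 748 CPM in LPLE heifers (median 564), from 214 to 400 CPM in HPHE heifers (median 354) and from 330 to 721 CPM in HPLE heifers (median 631). Its log2 fold change was -0.52 for LPHE-LPLE (SE 0.245, FDR = 0.443), -0.77 for HPHE-HPLE (SE 0.244, FDR = 0.146) and -0.64 for HE-LE (SE 0.172, FDR = 0.00981, edgeR). Only the contrast over both protein levels passed with all heifers, and without heifer 20 the LPHE-LPLE value was -0.81 (FDR = 0.0376). Within genetic groups CYB5A differed by 0.0084 in HMY and -1.07 in LCM heifers for LPHE-LPLE, and by -1.08 and -0.43 for HPHE-HPLE. Whether the energy contrast of SCD or CYB5A in gestation differed between genetic groups was not tested.

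FADS2 showed no detectable energy contrast in gestation. It ranged from 4.26 to 20.6 CPM in LPHE heifers (median 7.74), from 8.93 to 13.6 in LPLE (median 12.1), from 4.21 to 20.8 in HPHE (median 9.64) and from 5.96 to 36.7 in HPLE (median 14.2). LPLE heifers lay within a narrow band, while the highest value overall belonged to heifer 13 of HPLE, the HPLE heifer with the lowest SCD. The log2 fold change was -0.30 for LPHE-LPLE (SE 0.382, FDR = 0.891), -0.58 for HPHE-HPLE (SE 0.384, FDR = 0.932) and -0.44 for HE-LE (SE 0.270, FDR = 0.435, edgeR). Single heifers moved these values widely without any call: LPHE-LPLE was -0.75 without heifer 5 and -0.14 without heifer 20 of LPHE, HPHE-HPLE was -0.82 without heifer 2 of HPHE and -0.11 without heifer 13 of HPLE, and HE-LE was -0.68 without heifer 5 (FDR = 0.108) and -0.20 without heifer 13. Protein contrasts of the 3 genes in gestation did not pass either, with values from -0.66 (SCD, HPHE-LPHE, SE 0.432) to 0.47 (FADS2, HPLE-LPLE, SE 0.382) and 0.00746 and 0.0746% of genes called.

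**Figure D3:**
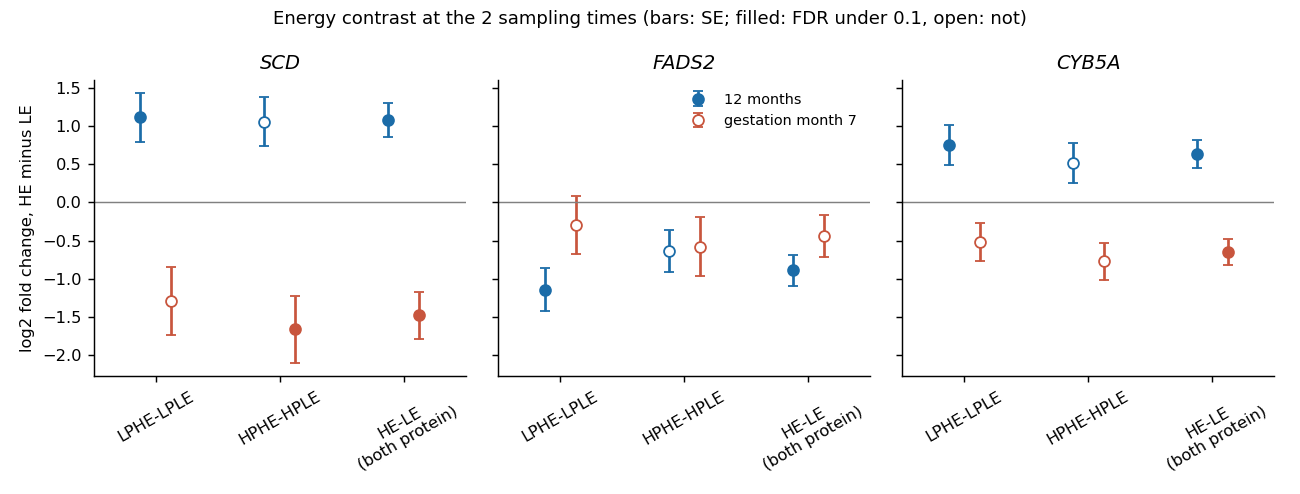
Log2 fold change of HE minus LE (vertical axis) for SCD, FADS2 and CYB5A at 12 months (blue) and in gestation (red), with the SE as bars and filled symbols for an FDR under 0.1. SCD went from 1.08 to -1.47 and CYB5A from 0.63 to -0.64 over both protein levels, while FADS2 was below 0 at both times.

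Whether the energy contrast itself changed between sampling times was tested as the HE-LE difference in gestation minus that at 12 months, in an edgeR model of all 48 samples. Over both protein levels it was -2.52 for SCD (SE 0.406, FDR = 1.76e-07) and -1.26 for CYB5A (SE 0.264, FDR = 9.25e-05), with 21.3% of 13718 genes called. FADS2 had 0.38 (SE 0.361, FDR = 0.516). At low protein alone, where 9.24% of genes were called, the change was -2.36 for SCD (SE 0.580, FDR = 0.00283) and -1.22 for CYB5A (SE 0.374, FDR = 0.0248). At high protein alone, where 1.3% were called, it was -2.67 for SCD (SE 0.573, FDR = 0.00478) and -1.30 for CYB5A (SE 0.374, FDR = 0.0659). FADS2 had 0.79 at low protein (SE 0.513, FDR = 0.393) and -0.033 at high protein (SE 0.509, FDR = 0.988). At low protein and over both levels, this contrast subtracts the 12-month values for which the study had named the 3 genes. Its direction there is not independent evidence. The CYB5A call at low protein was lost without heifer 24 of LPHE (-1.03, FDR = 0.119). At high protein it was lost without heifer 2, 6, 19 or 23 of HPHE or heifer 1 or 9 of HPLE (FDR 0.121 to 0.289). With the heifer as a fixed term, which pairs the samples of each animal, CYB5A passed at both protein levels (-1.33, FDR = 2.24e-04, and -1.27, FDR = 0.00238).

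The same comparison was made from the change within each heifer, a test chosen after the values were seen and under the same limit at low protein. From 12 months to gestation, log2 CPM of SCD changed by -2.55 ± 1.47 in LPHE and 0.018 ± 0.698 in LPLE heifers, and by -3.20 ± 0.933 in HPHE and -0.65 ± 1.10 in HPLE heifers (SD, n = 6 each). The differences of -2.57 at low and -2.55 at high protein each had p = 0.00433 in an exact permutation test of 6 heifers against 6 (adjusted over 8 tests, 0.00866). CYB5A gave -1.33 and -1.27 with the same exact permutation p, and FADS2 gave 0.68 (p = 0.201) and 0.20 (p = 0.725). For the log2 ratio of SCD to FADS2, the change differed between HE and LE heifers by -3.25 at low protein (p = 0.0173) and -2.76 at high protein (p = 0.0152, exact permutation, both adjusted 0.0231).

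Over all 24 heifers, each of the 3 genes was lower in gestation than at 12 months. SCD was lower in 19 heifers and fell by 1.49 on the log2 scale (SE 0.204, FDR = 1.20e-11), FADS2 was lower in 20 and fell by 0.73 (SE 0.182, FDR = 4.41e-04), and CYB5A was lower in 19 and fell by 0.77 (SE 0.132, FDR = 1.04e-07, edgeR). In this contrast 44.5% of genes were called. Paired sign-change permutation over the 24 heifers gave p = 1.6e-04 for SCD, 4.2e-04 for FADS2 and 2e-04 for CYB5A.

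SCD fell in all 6 LPHE heifers, to between 0.0519 and 0.568 of its level at 12 months (median 0.228), and in all 6 HPHE heifers, to between 0.0475 and 0.284 (median 0.113). In LPLE heifers the level in gestation was 0.467 to 1.79 times that at 12 months (median 1.12, lower in 3 of 6), and in HPLE heifers 0.209 to 1.70 times (median 0.725, lower in 4 of 6). The log2 fold change of SCD was -2.33 in LPHE (SE 0.425, FDR = 1.98e-06, 29.8% of genes called) and -3.17 in HPHE (SE 0.433, FDR = 5.89e-11, 32.4% called). In LE heifers it was 0.027 in LPLE (SE 0.398, FDR = 0.999, 0.598% called) and -0.50 in HPLE (SE 0.399, FDR = 0.752, 2.62% called). CYB5A followed the same division by energy, at -1.23 in LPHE (SE 0.268, FDR = 1.00e-04) and -1.58 in HPHE (SE 0.269, FDR = 2.42e-07) against -0.0035 in LPLE (SE 0.263, FDR = 0.999) and -0.28 in HPLE (SE 0.263, FDR = 0.816). The LPHE and LPLE changes subtract 12-month values for which the study had named these genes, so their direction is not independent evidence.

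FADS2 passed the test between times in LPLE, where the values of SCD and CYB5A were near 0, although its change was not shown to differ between HE and LE heifers. The changes in LPLE and LPHE subtract the 12-month values for which the study had named FADS2. Their direction is not independent evidence. In LPLE heifers FADS2 was lower in gestation in 6 of 6, at 0.256 to 0.513 of the level at 12 months (median 0.416). The log2 fold change was -1.40 (SE 0.367, FDR = 0.0369). This call was lost without heifer 4, 18 or 22 (FDR 0.101 to 0.237) and passed with the heifer as a fixed term (-1.37, FDR = 0.00274). In the other diets it was -0.62 in LPHE (SE 0.366, FDR = 0.219), -0.46 in HPHE (SE 0.361, FDR = 0.366) and -0.42 in HPLE (SE 0.361, FDR = 0.775), and lower in 4, 5 and 5 of 6 heifers. The LPHE value passed without heifer 5 (-1.13, FDR = 0.0201) and in limma with the heifer pairing (-0.86, adjusted p = 0.0515), and the HPLE value passed without heifer 13 (-1.07, FDR = 0.0932). With 6 pairs, an exact sign-change permutation cannot go below p = 0.03125, which SCD and CYB5A reached in LPHE and HPHE and FADS2 in LPLE (adjusted over 15 tests, 0.0586).

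**Figure D4:**
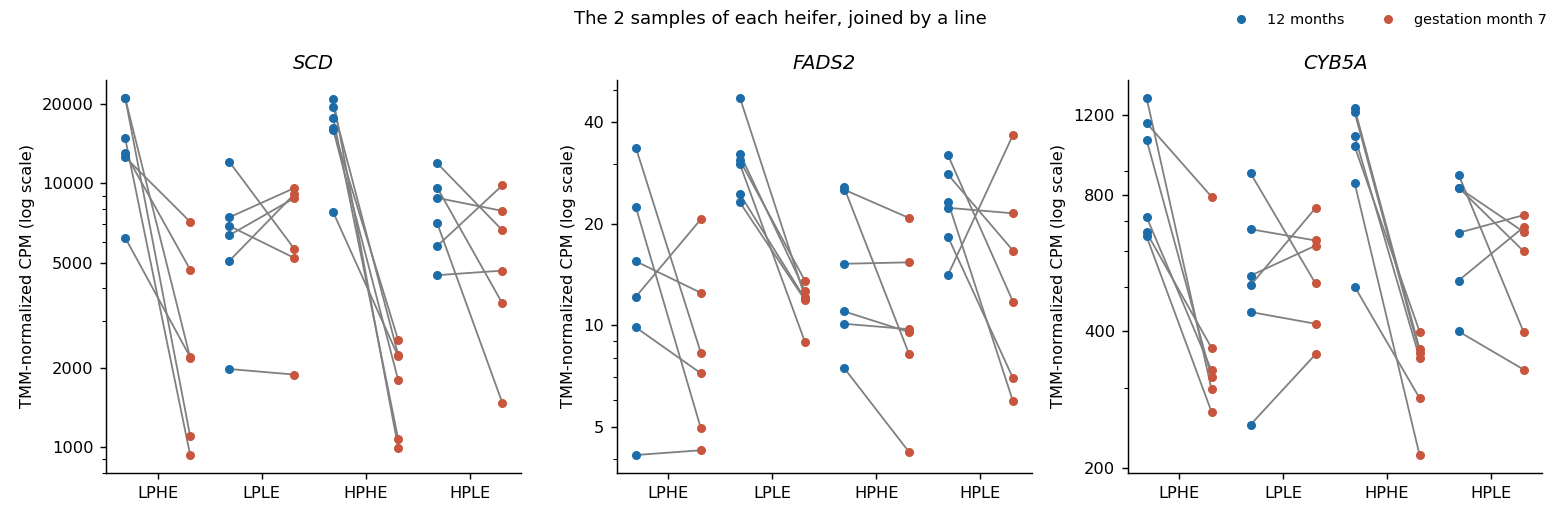
TMM-normalized CPM on a log scale (vertical axes) in both samples of each heifer, 12 months (blue) and gestation (red), joined by a line and arranged by diet. SCD and CYB5A lines fell in 6 of 6 LPHE and 6 of 6 HPHE heifers and went both ways in LPLE and HPLE heifers, while FADS2 lines fell in 6 of 6 LPLE heifers.

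Across heifers, SCD and CYB5A went together, while no relation of FADS2 to SCD passed the adjustment within diets. At 12 months, log2 CPM of SCD and CYB5A had Pearson r = 0.740 and Spearman rho = 0.623 over 24 heifers (permutation p adjusted over 9 relations 1.80e-04 and 0.00630). After centring each value on the mean of its diet, r was 0.563 (adjusted p = 0.0179) and rho 0.410 (adjusted p = 0.216), and without the 2 heifers farthest from the median of SCD r was 0.384. In gestation, r was 0.830 and rho 0.839 (adjusted permutation p = 9.0e-05 for both). Centred on diet, r was 0.725 and rho 0.677 (adjusted p = 6.30e-04 and 0.00387), and r was 0.627 without the 2 farthest heifers, so the relation in gestation was also present within diets.

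SCD and FADS2 had r = -0.616 and rho = -0.594 at 12 months (adjusted permutation p = 0.00468 and 0.00822). This did not hold within diets: centred on diet r was -0.347 and rho -0.177 (adjusted p = 0.148 and 0.502), and without the 2 farthest heifers r was -0.065. In gestation r was -0.120 and rho -0.027 (adjusted p = 0.697 and 0.903). Centred on diet, r in gestation was -0.410 (permutation p = 0.0467, adjusted 0.105) and rho -0.258 (adjusted p = 0.402), and r was -0.297 without the 2 farthest heifers. No relation between the level of a gene at 12 months and in gestation was detected once diet was taken out: centred on diet, r between both times was 0.086 for SCD, 0.199 for FADS2 and 0.433 for CYB5A, with adjusted permutation p of 0.693, 0.396 and 0.101 (rho -0.144, 0.172 and 0.305, adjusted p = 0.502, 0.502 and 0.344).

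Over all 48 samples and 13717 other genes, the pattern of SCD was most like that of an unnamed gene, ENSBTAG00000047957 (Pearson r = 0.996, log2 CPM). Its counts were 24.7 to 36.8 per 100 counts of SCD in every sample (median 31.2). Whether reads of SCD-like sequence were divided between these loci, or set aside for aligning to more than 1 place, cannot be settled from counts. The level of SCD is therefore uncertain to an extent not known here. Next were ACSS2, which makes acetyl-CoA from acetate (r = 0.958), and HSPA9, a mitochondrial chaperone (r = 0.952). CYB5A was most like CHPT1, the last enzyme of one route to phosphatidylcholine (r = 0.905), OXCT1, which activates ketone bodies (r = 0.899), and EHHADH, an enzyme of peroxisomal fatty acid oxidation (r = 0.898). SCD and CYB5A had r = 0.853 with each other, but FADS2 had r = 0.062 with SCD and 0.034 with CYB5A. The genes nearest to FADS2 carried no name in the sources used here, the first of them being ENSBTAG00000012761 (r = 0.764). These correlations share libraries, heifers and diets and are given as a description.

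Other genes of lipid synthesis were taken from 6 fixed lists with 66 genes, of which 15 had an identifier. These identifiers came from the gene lists of the study, which were themselves selected on the 12-month samples, so their direction in that contrast is not independent evidence. At 12 months 13 of the 15 were higher and 1 lower in LPHE than in LPLE, where 4.45% of all genes were higher and 2.63% lower (median log2 fold change 0.95, against -0.019 over all genes tested). That split of all calls, 593 higher and 351 lower, became 422 and 491 with scaling by library size only, where 10 of the 15 were higher and 1 lower. None of the 15 was called in HPHE-HPLE (median 0.45, against -0.011). In gestation 5 of the 15 were lower in LPHE than in LPLE, as were 0.739% of all genes (median -0.83, against 0.014), 7 were lower in HPHE than in HPLE, as were 0.783% (median -1.03, against 0.0099), and none was higher. For HE-LE in gestation 12 were lower, as were 4.12% (median -0.93, against 0.014). With library size only, 5, 7 and 11 of the 15 were lower in these contrasts and none was higher, while all calls went from 42 higher and 99 lower to 60 and 58 in LPHE-LPLE, and from 296 and 552 to 487 and 397 in HE-LE. The change of the energy contrast between sampling times passed for all 15, with 14 negative and 1 positive, against 12% and 9.24% of all genes (median -2.10, against 0.056 over all genes). Scaling by library size only left 14 negative and 1 positive, but turned the split of all calls from 1267 positive and 1650 negative to 2769 and 1162 and moved the median of all genes to 0.18. This contrast subtracts the 12-month values on which the identifiers were selected, so its direction is not independent evidence either.

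Genes that supply substrate for SCD reversed with it. ACSS2, SLC25A1 (the mitochondrial citrate carrier), ME1 (malic enzyme, a source of NADPH) and ACLY (which releases acetyl-CoA from citrate) had HE-LE log2 fold changes of 0.95 (SE 0.168), 0.75 (SE 0.193), 1.46 (SE 0.239) and 1.21 (SE 0.302) at 12 months. In gestation these were -1.47 (SE 0.268), -1.54 (SE 0.224), -0.70 (SE 0.247) and -1.26 (SE 0.201). All 8 values passed, with an edgeR FDR from 2.32e-08 to 0.0829, as did those of ACACA and FASN, the other genes of that list with an identifier. Elongation genes ELOVL6, which lengthens palmitate to stearate, and HSD17B12, the ketoacyl-CoA reductase of the elongation cycle, went from 1.28 (SE 0.216) and 0.63 (SE 0.167) to -1.10 (SE 0.236) and -0.93 (SE 0.206), and passed at both times.

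Other genes close to desaturation are given in turn. CYB5B, the cytochrome b5 of the outer mitochondrial membrane, had an HE-LE value of 0.57 (SE 0.130, FDR = 0.00106) at 12 months and -0.32 (SE 0.122, FDR = 0.111) in gestation, the latter not passing. DEGS1, the desaturase of ceramide synthesis, went from 0.50 (SE 0.129) to -0.45 (SE 0.106), and SC5D, a sterol desaturase, from 0.37 (SE 0.124) to -0.41 (SE 0.116), all with an FDR under 0.1. THRSP, a regulator of lipogenesis, went from 1.05 (SE 0.219) to -1.22 (SE 0.331) and passed at both times. MLXIPL, the carbohydrate-response transcription factor, had 0.41 (SE 0.152, FDR = 0.0737) and -0.71 (SE 0.165, FDR = 0.00157). ACSL4, which activates long-chain polyunsaturated fatty acids, had 0.74 (SE 0.209, FDR = 0.0127) and -0.33 (SE 0.215, FDR = 0.462). LPCAT4, a lysophospholipid acyltransferase, had -0.37 (SE 0.145, FDR = 0.0919) and 0.14 (SE 0.118, FDR = 0.628), so it was the pathway gene that, with FADS2, was lower in HE heifers at 12 months.

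**Figure D5:**
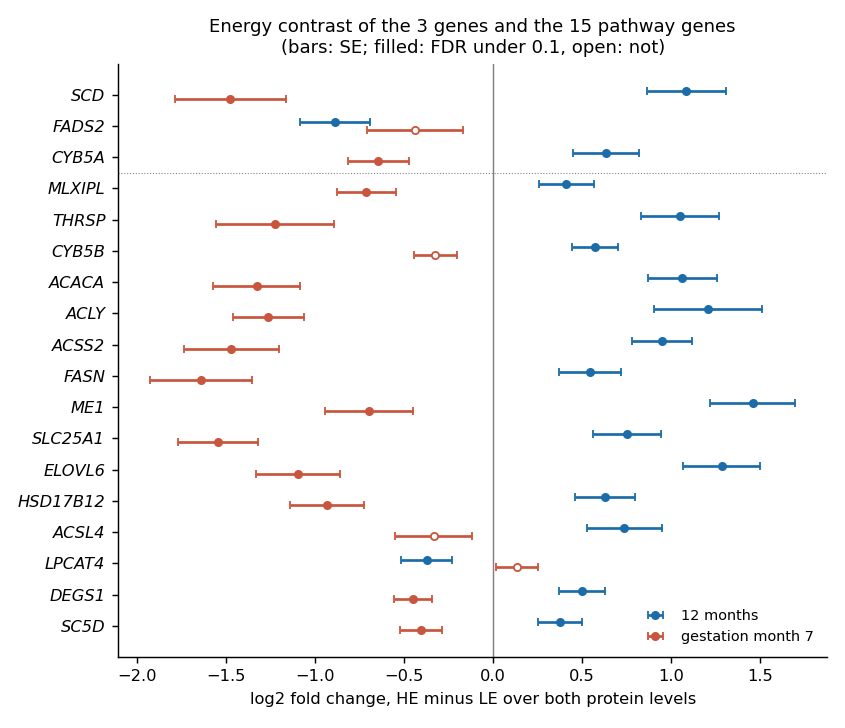
Log2 fold change of HE minus LE over both protein levels (horizontal axis) for the 3 genes (above the dotted line) and the 15 pathway genes with an identifier, at 12 months (blue) and in gestation (red), with the SE as bars and filled symbols for an FDR under 0.1. SCD, CYB5A and 14 of the 15 pathway genes lay above 0 at 12 months and below 0 in gestation, whereas FADS2 was below 0 at both times and LPCAT4 lay below 0 at 12 months and above 0 in gestation.

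Markers of other tissue components differed in LPHE-LPLE at 12 months. Of 6 fixed fibroblast markers 4 had an identifier, and all 4 were lower in LPHE than in LPLE, as were 2.63% of all genes, with values from -0.63 (DCN) to -1.09 (COL1A1). Their summed level was 19436 to 57621 CPM in LPHE heifers (median 36798) and 35776 to 98446 CPM in LPLE heifers (median 75767). In HPHE heifers it was 23034 to 51311 CPM (median 30626) and in HPLE heifers 30218 to 67366 CPM (median 48103), with no marker called. Heifer 12 of LPHE and heifer 18 of LPLE, each lowest of its group in SCD, had the highest sum of their groups. Heifer 15 of HPHE (34386 CPM) and heifer 9 of HPLE (56198 CPM), each also lowest of its group in SCD, did not. Of 8 fixed skeletal muscle markers 5 had an identifier and all 5 were lower in LPHE, against the same 2.63%, with a summed level of 0.687 to 1.37 CPM against 1.13 to 60.5 CPM in LPLE. At high protein none of the 5 was called. Their sum was 0.615 to 123 CPM in HPHE heifers (median 10.7) and 0.422 to 117 CPM in HPLE heifers (median 4.34). Over both protein levels (HE-LE) the 4 fibroblast markers were again all lower, as were 4 of the 5 muscle markers, where 600 of 13339 genes were. CIDEC had 0.58 for LPHE-LPLE (SE 0.230, FDR = 0.132) and 0.54 for HE-LE (SE 0.162, FDR = 0.0203). These markers were identified through the study's list of differing genes, and their part in the 12-month values of SCD, FADS2 and CYB5A was not tested.

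In gestation no fibroblast marker was called in an energy contrast. The HE-LE log2 fold changes were 0.15 for COL1A1, 0.24 for COL1A2, 0.12 for COL3A1 and 0.20 for DCN. Their summed level was 18504 to 64917 CPM in LPHE (median 43203), 33239 to 45882 CPM in LPLE (median 43982), 18739 to 83962 CPM in HPHE (median 63800) and 21688 to 102404 CPM in HPLE heifers (median 34859). The highest sum belonged to heifer 13 of HPLE, which also had the lowest CIDEC of its group (970 CPM). No fibroblast, muscle or adipocyte marker was called in LPHE-LPLE, HPHE-HPLE or HE-LE, and CIDEC had -0.15 for HE-LE (SE 0.136, FDR = 0.651). The change of the energy contrast between sampling times passed for all 4 fibroblast markers, each positive, where 9.24% of all genes were. With RLE size factors or DESeq2, 3 of the 4 passed. This change also passed for 2 of the 5 muscle markers, both positive, and for CIDEC at -0.70 (SE 0.210, FDR = 0.0116). These results again rest on the 12-month values behind the identifiers. The part of these components in the change of SCD and CYB5A was not tested.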

How the data were processed

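Paired-end libraries of polyadenylated RNA from subcutaneous adipose tissue of 24 heifers, sampled at 12 months and in gestation, gave 48 samples. The authors trimmed the reads with Cutadapt (version 1.3), aligned them to UMD3.1 with Tophat (version 2.0.12) and summed them over Ensembl genes with HTSeq-count. The deposited values are whole-number counts that were not normalized. Summary rows of the counting tool were left out. Diet, genetic group and heifer came from the sample labels, and symbols from the tables of the study, since the files hold Ensembl identifiers only.

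Genes reaching 2 CPM in 3 or more samples were tested after TMM normalization. A negative binomial model with diet and genetic group was fitted in edgeR (version 4.0.16) with trended and tagwise dispersions and tested by likelihood ratio, separately at 12 months and in gestation. Contrasts between times used all 48 samples with diet by time. P-values were adjusted by Benjamini-Hochberg over all genes tested (FDR), and an FDR under 0.1 was a call. SE was derived from the likelihood ratio statistic, as the absolute log2 fold change over the root of that statistic. Exact permutation tests, two-sided, used log2 CPM with a pseudocount of 0.5, and permutation tests over 24 heifers used 100000 draws. Genes named beside SCD, FADS2 and CYB5A are the 3 with the highest Pearson r with each and up to 4 called genes per pathway list by the smallest p in LPHE-LPLE or HPHE-HPLE at either time. Members, lists and tests were chosen with earlier results of these data known.

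Samples of both times were paired by heifer, since the labels give the same animal, and the correlation within heifers estimated by limma (version 3.58.1) was 0.266. Alternatives were the quasi-likelihood F test, DESeq2 (version 1.42.0), other normalizations, filters and samples, the heifer block, each heifer left out, and dispersions from estimateDisp, which were added after the data were seen. Scripts were tested on simulated counts. The authors spread the samples at random over sequencing lanes; lane is not in the labels and was not modelled. Promoter motifs were not examined. Depth was high enough that the spread between heifers, not counting error, set the precision.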

Additional observations from a re-analysis of the deposited data

Results flagged for a closer look

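The energy contrast of SCD and CYB5A differed between both sampling times by an interaction test in the edgeR model of 48 samples. For SCD the difference was -2.36 at low protein, -2.67 at high protein and -2.52 over both, and for CYB5A it was -1.22, -1.30 and -1.26. At low protein and over both, it rests on the 12-month values for which the study had named these genes. Its direction there is not independent evidence. The sampling times differ in feeding, age and pregnancy together, and these cannot be told apart. Of 24 groups of 6 heifers examined for a value far from the rest by Dixon's criterion, 3 held one, where chance gives about 1 in 20. These were SCD in HPHE heifer 15 at 12 months (7782 CPM), FADS2 in LPLE heifer 8 in gestation (8.93 CPM) and CYB5A in LPHE heifer 20 in gestation (791 CPM). Heifer 15 also had the lowest CYB5A of its group at that time (502 CPM), and heifer 20 the highest SCD of its group (7152 CPM).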

How the results depend on the processing

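For SCD, FADS2 and CYB5A, 733 of 763 values recomputed with another test, normalization, filter, sample set, threshold or replicate block kept their direction and their side of the threshold, 10 lost a call, 4 gained one and 16 changed sign. The cause of these changes was not tested. Most results were not called in the main fit, and such a result counts as kept when neither fit calls it. The threshold of 0.05 reuses the main value and can only end a call. The quasi-likelihood test no longer called CYB5A in LPHE-LPLE at 12 months (0.75), SCD in HPHE-HPLE in gestation (-1.66), FADS2 between times in LPLE (-1.40) and CYB5A in energy by time at high protein (-1.30). An FDR threshold of 0.05 ended the calls of CYB5A in LPHE-LPLE at 12 months (0.75) and in energy by time at high protein (-1.30), and testing without a filter ended the first of these (0.75). With the 12 samples of the contrast alone, SCD passed in HPHE-HPLE at 12 months (1.03) and CYB5A in HPHE-HPLE in gestation (-0.76). DESeq2 called FADS2 in HMY-LCM at 12 months (0.81).

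The limma fit of all 48 samples with the within-heifer correlation, a form of replicate block, ended the calls of SCD (1.28) and FADS2 (-0.98) in LPHE-LPLE at 12 months and of SCD in HPHE-HPLE in gestation (-1.54), and added FADS2 between times in LPHE (-0.86). It changed no other call of the 3 genes. Within 1 sampling time, this fit differs from the main one in test and sample set as well as in the block. The part of each was not tested. With the heifer as a fixed term, no call changed.

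Changes of sign fell on values that passed in no fit. CYB5A in HPLE-LPLE in gestation became -0.0066 with DESeq2, -0.0065 with RLE size factors, -0.0035 without a filter and -0.0010 with at least 10 counts in every sample. CYB5A between times in LPLE became 0.0056 with DESeq2 and with RLE, 0.028 with library size, 0.019 without a filter, 0.00075 with at least 10 counts, and 0.057 and 0.052 with the replicate block as a fixed term and in limma. FADS2 in energy by time at high protein became 0.086 with library size and 0.25 and 0.23 with the block. FADS2 became 0.014 in HPHE-LPHE at 12 months with 12 samples, and -0.081 in (LPHE-LPLE)-(HPHE-HPLE) in gestation with the block in limma.

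Leaving out each heifer in turn gave, at 12 months, 0.59 to 0.92 for CYB5A in LPHE-LPLE, 0.93 to 1.23 for SCD in HPHE-HPLE, 0.70 to 0.89 for FADS2 in HMY-LCM (called without 4, 10 or 14 of LPLE, 7 or 17 of HPLE or 19 of HPHE), -0.18 to 0.23 for FADS2 in HPHE-LPHE and -0.13 to 0.32 for SCD in (LPHE-LPLE)-(HPHE-HPLE). In gestation it gave -1.65 to -1.06 for SCD and -0.81 to -0.40 for CYB5A in LPHE-LPLE, and -1.87 to -1.46 for SCD and -0.90 to -0.66 for CYB5A in HPHE-HPLE (CYB5A called without 13 of HPLE). Protein contrasts in gestation gave -0.33 to 0.052 for CYB5A and -0.048 to 0.62 for FADS2 in HPHE-LPHE, -0.12 to 0.13 for CYB5A and -0.054 to 0.65 for FADS2 in HPLE-LPLE, and -0.023 to 0.37 for CYB5A and -0.18 to 0.51 for FADS2 in the difference of both energy contrasts. Between times it gave -1.45 to -1.27 for FADS2, -0.13 to 0.32 for SCD and -0.14 to 0.21 for CYB5A in LPLE, -1.13 to -0.27 for FADS2 in LPHE and -1.07 to -0.20 in HPLE. Energy by time gave -1.46 to -1.03 for CYB5A at low protein, and -1.47 to -1.17 for CYB5A and -0.25 to 0.59 for FADS2 at high protein.

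The number of genes called varied more than the values of the 3 genes. In LPHE-LPLE at 12 months it was 944, but 1615 with DESeq2 and 1533 with all 48 samples. In HPHE-HPLE it was 16, but 0 with the quasi-likelihood test and with the block, 25 with DESeq2 and 61 with 12 samples alone (965 at an unadjusted p under 0.05). In gestation LPHE-LPLE had 141 (0 with quasi-likelihood, 8 with the block, 423 with DESeq2) and HPHE-HPLE 127 (0, 3 with the block and 77 with 48 samples), at 1335 and 904 unadjusted. For HE-LE DESeq2 gave 2465 in place of 1524 at 12 months and 1727 in place of 848 in gestation. Energy by time had 1267 at low and 178 at high protein, but 2249 and 684 with the fixed block. Scaling by library size only turned the split of higher and lower calls from 924 and 600 to 618 and 1169 for HE-LE at 12 months, from 2998 and 3105 to 4698 and 1964 between times over all diets, and in energy by time from 340 and 927 to 940 and 628 at low protein. It moved the median of all genes to 0.19 between times in LPHE (0.025 with TMM), 0.17 in HPHE (0.037), and 0.19 and 0.13 in energy by time at low and high protein (0.053 and 0.031).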
